A study of Mus musculus with 6 samples.

Results

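F-box proteins are the exchangeable substrate receptors of SCF ubiquitin ligases, and the genes that encode them were examined in the vestibular sensory epithelium of the mouse after chronic ototoxic exposure. The family was taken by name from the deposited counts, as every protein-coding gene whose symbol begins with *Fbxw*, *Fbxl* or *Fbxo* followed by a number, which gave 78 of 52636 genes. These were 23 *Fbxw* genes, 18 *Fbxl* genes and 37 *Fbxo* genes. Within the family, *Fbxw7* and *Fbxo2* were set against the other members.

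RNA-seq compared 3 Control with 3 IDPN animals, all of them male 129S1/SvImJ mice aged 2 to 4 months when exposure began. The IDPN group drank water with 30 mM 3,3'-iminodipropionitrile for 8 weeks, a compound that damages the sensory hair cells (HCs) of the ear, and the Control group drank water without it. A library holds the 2 utricles and 6 cristae of 1 animal, so HCs, supporting cells, nerve endings and connective tissue were read together, and fewer cells of a type cannot be told apart from less RNA per cell. In the labels, the 3 Control animals carry a common code that is absent from the IDPN group, so whatever that code stands for cannot be told apart from the exposure. The deposited estimated counts summed to between 40474847 and 43566332 per library, with size factors of 0.825 to 1.21. IDPN 2 stood apart from the other IDPN libraries for *Jun*, *Myc* and other genes, and the results that rest on it are given with and without it.

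An SCF ligase is built on the scaffold Cullin-1, which holds the RING protein Rbx1 at one end and the adaptor Skp1 at the other. The F-box domain docks to Skp1, and the rest of the F-box protein chooses what is to be ubiquitylated: WD40 repeats in the Fbxw proteins, leucine-rich repeats in the Fbxl proteins, and various other domains in the Fbxo proteins. Attachment of Nedd8 to the cullin switches the ligase on, the COP9 signalosome removes it, and Cand1 helps one F-box protein replace another. Fbxw7 recognises phosphorylated degrons and removes proteins such as cyclin E, Myc, Jun, Mcl1 and the intracellular part of Notch. Fbxo2 (Fbs1) binds high-mannose glycans on misfolded glycoproteins; it is long known, together with Skp1, as an abundant protein of the organ of Corti, and mice without it lose hearing with age.

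Because *Fbxw7* and *Fbxo2* are the genes that the results turn on, the sequences around their annotated starts are shown. RefSeq gives *Fbxw7* 3 separate starts on the forward strand of chromosome 3, and *Fbxo2* a single one on the forward strand of chromosome 4 (GRCm38.p6). Each window runs from 250 bases before to 50 bases after the start, and capitals mark 3 kinds of motif on either strand. The GC box was searched as GGGCGG in the window and in its reverse complement. For the TATA box the letters searched in the same way were TATAAA, and the CCAAT box was searched as its name is spelled. No match of a kind overlapped one of another kind in these windows.
Fbxw7, first start, chr3:84815327-84815626: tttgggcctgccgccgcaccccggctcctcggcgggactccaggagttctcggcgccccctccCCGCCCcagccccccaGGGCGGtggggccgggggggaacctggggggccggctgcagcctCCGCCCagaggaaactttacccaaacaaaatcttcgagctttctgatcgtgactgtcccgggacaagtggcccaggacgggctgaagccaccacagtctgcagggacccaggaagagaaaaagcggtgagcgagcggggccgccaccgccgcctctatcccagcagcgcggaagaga
Fbxw7, middle start, chr3:84863895-84864194: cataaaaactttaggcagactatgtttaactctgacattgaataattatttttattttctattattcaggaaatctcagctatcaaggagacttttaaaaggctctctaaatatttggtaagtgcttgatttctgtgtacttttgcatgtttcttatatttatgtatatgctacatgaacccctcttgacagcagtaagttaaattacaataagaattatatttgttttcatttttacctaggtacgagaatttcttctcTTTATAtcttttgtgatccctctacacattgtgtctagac
Fbxw7, last start, chr3:84951961-84952260: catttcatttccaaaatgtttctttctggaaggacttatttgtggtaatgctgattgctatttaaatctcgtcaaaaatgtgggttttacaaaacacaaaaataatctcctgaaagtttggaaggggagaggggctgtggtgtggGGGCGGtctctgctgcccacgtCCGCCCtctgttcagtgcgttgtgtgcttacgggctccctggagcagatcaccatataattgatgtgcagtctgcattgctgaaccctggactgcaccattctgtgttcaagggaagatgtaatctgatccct
Fbxo2, chr4:148160418-148160717: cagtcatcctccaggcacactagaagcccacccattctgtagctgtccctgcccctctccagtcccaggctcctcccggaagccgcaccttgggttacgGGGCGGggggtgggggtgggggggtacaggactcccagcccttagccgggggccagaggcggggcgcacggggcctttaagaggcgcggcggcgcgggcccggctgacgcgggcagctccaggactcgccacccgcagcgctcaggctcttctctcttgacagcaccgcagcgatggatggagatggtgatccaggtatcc
The first *Fbxw7* start lay in sequence with 69% GC, 24 CpG dinucleotides and 3 GC boxes. The middle one lay in sequence with 29.7% GC, 1 CpG and 1 match to the TATA box letters. That match was on the reverse strand and lay after the start, from base 11 on. The last start lay in sequence with 46% GC, 6 CpG and 2 GC boxes. The *Fbxo2* window had 69% GC, 21 CpG and 1 GC box. Over 32851 RefSeq windows of the same 300 bases, 35.7% held a GC box, 13.6% a TATA box and 37.4% a CCAAT box, and the medians were 52.7% GC and 7 CpG. None of the 4 windows held CCAAT. The counts are summed per gene, so they do not show which *Fbxw7* start was used in which group.

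A gene was tested with DESeq2 and called when its adjusted p-value (Padj, over all genes tested) was under 0.05 and its fold change was above 1.5. *Fbxw7*, *Fbxo36* and *Fbxo32* fell after IDPN and *Fbxo31* rose, so that 4 of the 58 members with a Padj were called. Calls for lower expression took 5.17% of the tested members (3 of 58) and 3.42% of all tested genes, and calls for higher expression took 1.72% of the members (1 of 58) and 2.32% of all tested genes. Both shares are near the background. Under edgeR, 2 of 56 tested members were called lower (3.57%, against 2.19% of all genes tested there) and 1 was called higher (1.79%, against 1.02%).

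**Figure D1:**
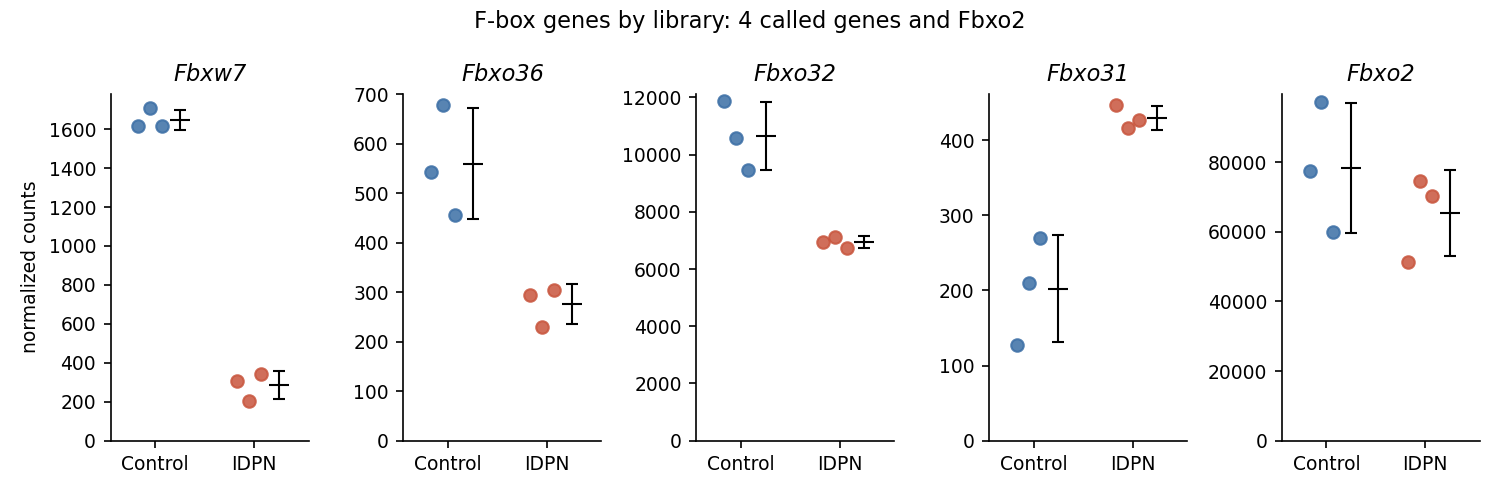
Normalized counts (y axis, from 0, a scale of its own for each gene) in the 3 Control and 3 IDPN libraries (points), with the mean and SD (black), for the 4 called F-box genes and for *Fbxo2*. The groups do not overlap for *Fbxw7*, *Fbxo36*, *Fbxo32* and *Fbxo31*, and they overlap for *Fbxo2*.

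*Fbxw7* (ENSMUSG00000028086.15) spans 84815268 to 84979198 on the forward strand of chromosome 3 and has 7046 bases of exon. Its normalized counts were 1616, 1708 and 1617 in the Control libraries 1 to 3, and 306, 206 and 342 in the IDPN libraries 1 to 3. All IDPN libraries lay far below all Control libraries, and the lowest value was that of IDPN 2. The mean went from 1647 ± 53.0 to 285 ± 70.8 normalized counts (SD, n = 3 each), a 5.78-fold fall (log2 fold change -2.53, SE 0.21, 95% interval -2.93 to -2.13, DESeq2 Padj = 1.15e-31). With edgeR the Padj was 0.00028. *Fbxw7* is one of 34 genes that the study selected for being downregulated in all its comparisons, these libraries included, so its fall here is not independent evidence of that direction. It was the lowest fold change among the 58 tested members, and the only one that passed a DESeq2 test against a fold change of 1.5 itself (Padj = 4.79e-18).

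The fall moved *Fbxw7* down through the family. Measured per length, as normalized counts per kb of exon, its level was 234 ± 7.52 in Control and 40.4 ± 10.0 in IDPN (n = 3 each, ± SD). It ranked 18th of the family in Control and 44th in IDPN, and 4529th and 10495th among all genes. Its share of all family counts was 1.12%, 1.07% and 1.37% in the Control libraries 1 to 3, and 0.279%, 0.151% and 0.263% in the IDPN libraries 1 to 3. A ratio within a library does not depend on the size factors. The log2 ratio of *Fbxw7* to the sum of all other members was -6.46, -6.54 and -6.17 in Control and -8.48, -9.37 and -8.56 in IDPN. That is a difference of -2.41, or 5.33-fold, with no overlap between the groups (two-sided exact permutation p = 0.10, the smallest that 3 against 3 libraries can give).

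The study lists *Fbxw7* as selectively expressed in HCs, and cites human data in which it was selective for type I over type II HCs. Several HC markers fell too, and their values stand here beside *Fbxw7*, since the tissue holds many cell types. The marker list does not separate the HC types. Of 20 HC markers (a list without the 34 genes named above), 7 were called lower and none higher with DESeq2 (at an unadjusted p under 0.05, 11 and 1), 6 were called lower with edgeR, and 18 had a negative log2 fold change, with a median of -0.58. Over all tested genes, 3.42% were called lower with DESeq2. The summed normalized counts of the markers were 54956 to 59156 in Control and 39472 to 41071 in IDPN. The lowest of the 20 log2 fold changes, -1.21 for *Gfi1* (a transcription factor of HCs) and for *Myo15* (a motor of the stereocilium tip), lay above the 95% interval of *Fbxw7*. The log2 ratio of *Fbxw7* to the mean log2 level of these markers was 0.48, 0.41 and 0.05 in Control and -1.72, -2.16 and -1.37 in IDPN. *Fbxw7* was therefore 4.19-fold lower relative to the HC markers, with no overlap (log2 difference -2.07, two-sided exact permutation p = 0.10). However, the study selected *Fbxw7* for its fall, and the marker list leaves out the other genes so selected. The choice of genes thus tilts this ratio towards a lower *Fbxw7*, and it is given as a description only. The part of HC number or HC content in the fall of *Fbxw7* was not tested.

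**Figure D2:**
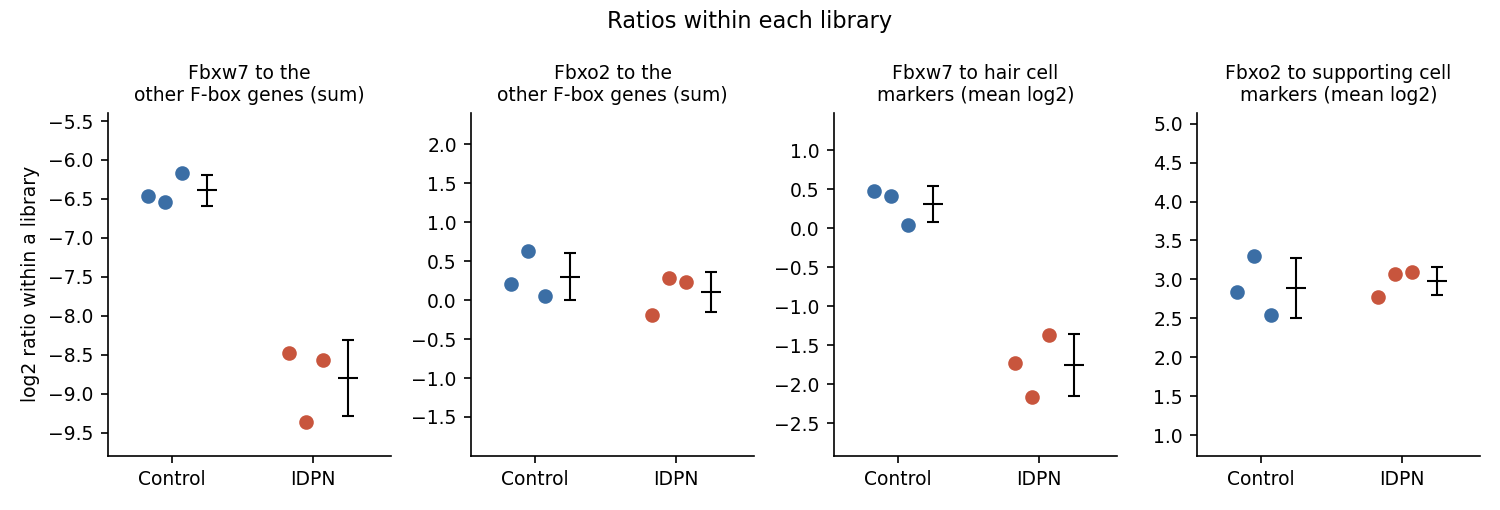
Log2 ratios within each library (y axis, a span of 4.4 log2 units in every panel) of *Fbxw7* and *Fbxo2* to the other F-box genes and to cell type markers; points are libraries and black marks the mean and SD (n = 3 per group). Both *Fbxw7* ratios are lower in all IDPN libraries, with log2 differences of -2.41 and -2.07, while both *Fbxo2* ratios overlap between the groups.

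*Fbxo2* was the dominant F-box transcript of the tissue in both groups. The gene (ENSMUSG00000041556.8) spans 148160621 to 148166424 on the forward strand of chromosome 4, with 1288 bases of exon. Its normalized counts were 77478, 97456 and 60080 in the Control libraries 1 to 3, and 51249, 74573 and 70171 in the IDPN libraries 1 to 3. The ranges overlapped, with Control 2 highest and IDPN 1 lowest. The mean was 78338 ± 18703 in Control and 65331 ± 12393 in IDPN (n = 3 each, ± SD; log2 fold change -0.26, SE 0.21, 95% interval -0.67 to 0.14), and *Fbxo2* was not called (DESeq2 Padj = 0.586, edgeR Padj = 0.641). The interval reaches past a 1.5-fold fall, so these libraries do not resolve whether a fall of that size took place.

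By itself *Fbxo2* made up 55.1% ± 5.09 of all family counts in Control and 51.8% ± 4.49 in IDPN (n = 3 each, ± SD; two-sided exact permutation p = 0.60). Per kb of exon its level was 60821 ± 14521 for Control and 50723 ± 9622 for IDPN, which ranked 34th and 33rd among all genes. *Fbxo32*, the member with the next highest level over all libraries, had 1526 ± 172 (SD, n = 3) normalized counts per kb in Control. Per kb, *Fbxo2* exceeded *Fbxo32* by 34.3 to 56.6 times across the 6 libraries. *Skp1a*, which encodes the adaptor to which all F-box proteins dock, ranked 26th in Control and 25th in IDPN. The level of *Fbxo2* per kb was between 0.501 and 0.660 of that of *Skp1a* in every library, with overlapping groups (two-sided exact permutation p = 0.70). *Skp1a* itself had 265520, 253320 and 179230 normalized counts in Control and 152870, 208290 and 200990 in IDPN, and was not called (log2 fold change -0.31, DESeq2 Padj = 0.433).

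Relative to the sum of all other members, the log2 level of *Fbxo2* was 0.21, 0.63 and 0.05 in the Control libraries 1 to 3, and -0.19, 0.28 and 0.23 in the IDPN libraries 1 to 3. The difference of -0.19 was within the spread of the libraries (two-sided exact permutation p = 0.60). Of 9 supporting cell markers, 7 had a negative log2 fold change in the same libraries and 2 were called lower, *Gjb6* (a connexin, log2 fold change -0.94, DESeq2 Padj = 2.8e-05) and *Sparcl1* (-0.59, DESeq2 Padj = 0.0365), and the median of the list was -0.42. At an unadjusted p under 0.05 (DESeq2), 5 of the 9 were lower and 0 higher. Over all tested genes, 3.42% were called lower with DESeq2. With edgeR, 0 of the 9 were called. The summed normalized counts of the 9 were 411810 to 604430 in Control and 308250 to 363180 in IDPN. Relative to the mean log2 level of these markers, *Fbxo2* differed by 0.09 on the log2 scale (two-sided exact permutation p = 0.70), and by -0.09 without Control 3.

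The subgroup with the F-box-associated domain holds *Fbxo2* and its closest relatives, *Fbxo6*, *Fbxo17*, *Fbxo27* and *Fbxo44*. Whether a product binds sugar does not follow from sharing this domain. None of the 5 was called with DESeq2 or edgeR, and 0 had an unadjusted p under 0.05 (DESeq2). *Fbxo44* (148152800 to 148160482, reverse strand) lies head to head with *Fbxo2*, with 138 bases between the ends of the gene models, and *Fbxo6* (148145716 to 148152140, reverse strand) follows 659 bases further on. *Fbxo44* had 2987, 2823 and 2168 normalized counts in Control and 2678, 4189 and 3201 in IDPN. Its groups overlapped, with the highest value in IDPN 2, and it was not called (log2 fold change 0.34, SE 0.20, DESeq2 Padj = 0.417). Without IDPN 2 its log2 fold change was 0.14 (DESeq2 Padj = 0.844). Scaled by total counts, which raises the median log2 fold change of all expressed genes by 0.25, *Fbxo44* was called higher (0.59, DESeq2 Padj = 0.0492).

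The neighbours *Fbxo44* and *Fbxo2* had fold changes of opposite sign, neither of them called. The ratio of *Fbxo2* to *Fbxo44* per kb was 60.9, 81.0 and 65.1 in Control and 44.9, 41.8 and 51.5 in IDPN. The groups did not overlap (log2 difference -0.58, two-sided exact permutation p = 0.10, the smallest possible here). Ratios of *Fbxo2* to *Skp1a* and to *Fbxo32* did overlap (exact permutation p = 0.70 and 0.20), and ratios of other gene pairs were not examined. *Fbxo6*, whose product also recognises N-glycans, had 797 to 1037 normalized counts in Control and 895 to 1087 in IDPN (log2 fold change 0.14, DESeq2 Padj = 0.782). *Fbxo27* had 202 to 269 and 263 to 327 normalized counts (0.38, DESeq2 Padj = 0.416), and *Fbxo17* had 137 to 187 and 140 to 213 (0.11, DESeq2 Padj = 0.911). The other members of the subgroup were all far below *Fbxo2* in level.

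*Fbxo36* fell along with *Fbxw7*. The gene (ENSMUSG00000073633.9) spans 84839841 to 84900487 on the forward strand of chromosome 1. Its normalized counts were 542, 679 and 456 in the Control libraries 1 to 3, and 295, 229 and 303 in the IDPN libraries 1 to 3, with no overlap. The mean went from 559 ± 112 to 276 ± 40.7 (SD, n = 3 each), a 2.03-fold fall (log2 fold change -1.02, SE 0.22, DESeq2 Padj = 3.26e-04, edgeR Padj = 0.0216). It was called whichever library was left out, with log2 fold changes of -1.15 to -0.86. Scaled by total counts it kept its direction but was not called (-0.73, DESeq2 Padj = 0.0882). Per kb it ranked 17th in the family in Control and 26th in IDPN.

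*Fbxo32* encodes atrogin-1, best known as a ubiquitin ligase subunit of muscle that is induced in atrophy. It was nonetheless among the most abundant F-box transcripts of this epithelium, ranking 2nd of the family per kb in Control and 4th in IDPN. The gene (ENSMUSG00000022358.6) spans 58175879 to 58214932 on the reverse strand of chromosome 15. Its normalized counts were 11880, 10590 and 9478 in the Control libraries 1 to 3, and 6962, 7133 and 6744 in the IDPN libraries 1 to 3. The groups did not overlap, and the IDPN libraries lay close together. The mean went from 10649 ± 1202 to 6946 ± 195 (SD, n = 3 each), a 1.53-fold fall (log2 fold change -0.62, SE 0.15, DESeq2 Padj = 0.00164). This call stood near its thresholds: edgeR did not call it (Padj = 0.0660), total-count scaling gave -0.35 (DESeq2 Padj = 0.305), and without Control 1 the fold fell short (-0.53, DESeq2 Padj = 0.0244). Skeletal muscle markers were near 0, with sums over 6 genes of 25.4 to 48.5 normalized counts in Control and 20.7 to 22.4 in IDPN. Of the 2 that were tested, *Tnnt3* was itself called lower, with 21.8, 18.5 and 24.0 normalized counts in Control and 4.97, 0 and 0 in IDPN (DESeq2 Padj = 0.0179), and the part of muscle RNA in the fall of *Fbxo32* was not tested.

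*Fbxo31* was the member that rose. Its product is a substrate receptor that acts in the DNA damage response and takes cyclin D1 among its substrates. The gene (ENSMUSG00000052934.14) spans 121549440 to 121578806 on the reverse strand of chromosome 8. Its normalized counts were 127, 210 and 270 in the Control libraries 1 to 3, and 446, 416 and 426 in the IDPN libraries 1 to 3. The IDPN libraries were tightly grouped above a wide Control range whose lowest value was that of Control 1. The mean went from 202 ± 71.4 to 429 ± 15.4 (SD, n = 3 each), a 2.12-fold rise (log2 fold change 1.08, SE 0.27, DESeq2 Padj = 0.00184, edgeR Padj = 0.0488). It was called whichever library was left out, with log2 fold changes of 0.83 to 1.35, and it ranked 44th of the family per kb in Control and 35th in IDPN.

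**Figure D3:**
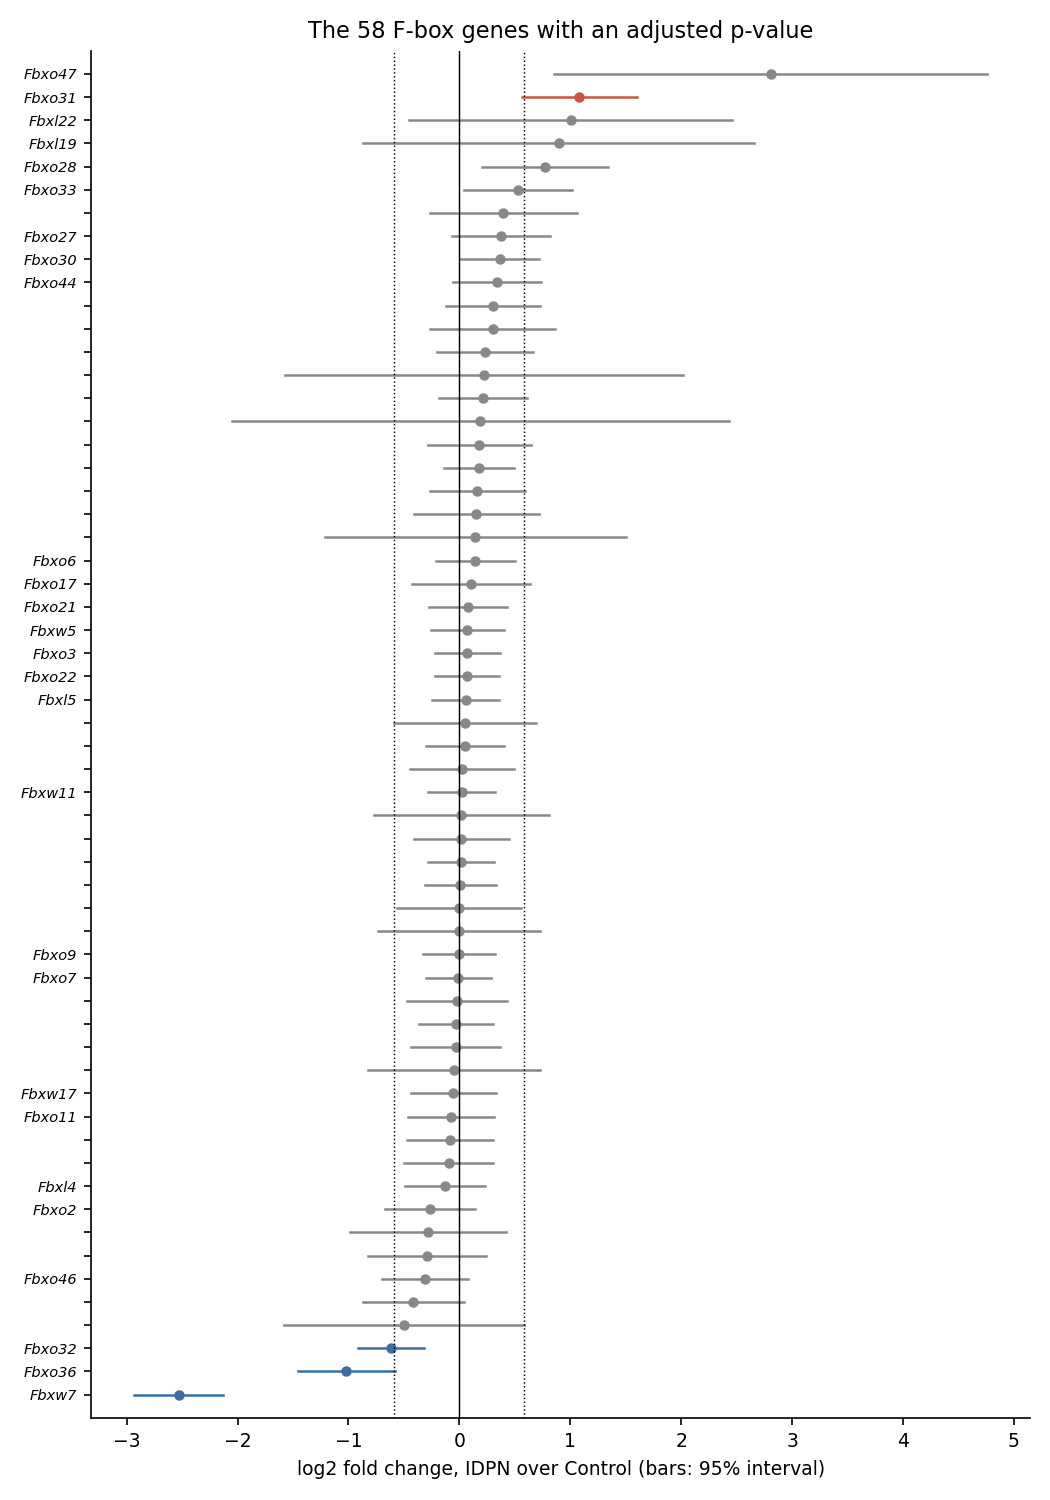
Log2 fold change (x axis, IDPN over Control) with its 95% interval (bars) for the 58 F-box genes with a Padj, ordered by value; blue marks genes called lower, red genes called higher, grey genes not called, and dotted lines a 1.5-fold change; genes described by name in the text are labelled. *Fbxw7* lies alone at -2.53, and most other members lie near 0.

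No other member was called. Over the 57 members with a mean count of at least 10, the median log2 fold change was 0.05, with 35 positive and 22 negative values, beside 0.01 over the 16250 genes expressed at the same minimum. For 24 of the 58 tested members (41.4%) the gene was not called and the whole 95% interval lay within a 1.5-fold change, against 29.2% of all tested genes. For the other 30 that were not called the interval reached past 1.5-fold, so a change of that size was not resolved there. All IDPN libraries lay above all Control libraries for 5 of 58 tested members (8.62%), against 11.1% of all tested genes, and below them for 4 (6.9%), against 11.4%. The first were *Fbxo22*, *Fbxo30*, *Fbxo31*, *Fbxo33* and *Fbxo47*, and the second *Fbxw7*, *Fbxo32*, *Fbxo36* and *Fbxo46*.

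The *Fbxw* genes were of 2 kinds. Of the 9 that were expressed, only *Fbxw7* was called. *Fbxw11* (beta-TrCP2, which removes phosphorylated beta-catenin and the inhibitor of NF-kB) had 3899 to 4142 normalized counts in Control and 3672 to 4660 in IDPN (log2 fold change 0.02, DESeq2 Padj = 0.972). *Fbxw5* had 1446 to 1906 and 1779 to 1888 (0.07, DESeq2 Padj = 0.897). The other 14 *Fbxw* genes form an array between 109139447 and 109790670 on chromosome 9. Of these, 13 had no count in any library, and *Fbxw15* had 3 counts in IDPN 2 alone. *Fbxw17*, a related gene on another chromosome, was expressed, with 352 to 426 normalized counts in Control and 368 to 415 in IDPN.

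All 18 *Fbxl* genes had counts, 17 were expressed and none was called with DESeq2 or edgeR, with 0 of them at an unadjusted p under 0.05 and a median log2 fold change of 0.06. *Fbxl5*, an iron sensor that controls the degradation of the iron regulatory proteins, had the highest level of them per kb and was not called (5230 to 6663 normalized counts in Control and 5795 to 6499 in IDPN, log2 fold change 0.06, DESeq2 Padj = 0.919). *Fbxl4*, a mitochondrial member, had 1632 to 2313 normalized counts in Control and 1634 to 1832 in IDPN (-0.13, DESeq2 Padj = 0.816). For *Fbxl19* and *Fbxl22* the estimates were larger, at 0.90 and 1.01, but they rested on 1 to 24 and 5 to 26 counts per library and neither was called (DESeq2 Padj = 0.703 and 0.549).

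Among the *Fbxo* genes, *Fbxo32* was the called one among the 10 members with the highest level per kb. *Fbxo9* had 3217 to 4350 normalized counts in Control and 3595 to 4056 in IDPN (log2 fold change -0.01, DESeq2 Padj = 0.991). *Fbxo22* stood at 1513 to 1675 and 1676 to 1714, so that its groups were separate by a narrow margin, and was not called (0.07, DESeq2 Padj = 0.888). *Fbxo3* (0.07, DESeq2 Padj = 0.887) and *Fbxo21* (0.08, DESeq2 Padj = 0.904) were likewise not called. *Fbxo7*, mutated in a hereditary form of parkinsonism, had 1768 to 1980 and 1775 to 1954 normalized counts (-0.01, DESeq2 Padj = 0.986). *Fbxo11*, whose mutation causes chronic otitis media in the Jeff mouse, had 1116 to 1421 and 991 to 1499 (-0.07, DESeq2 Padj = 0.915).

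**Figure D4:**
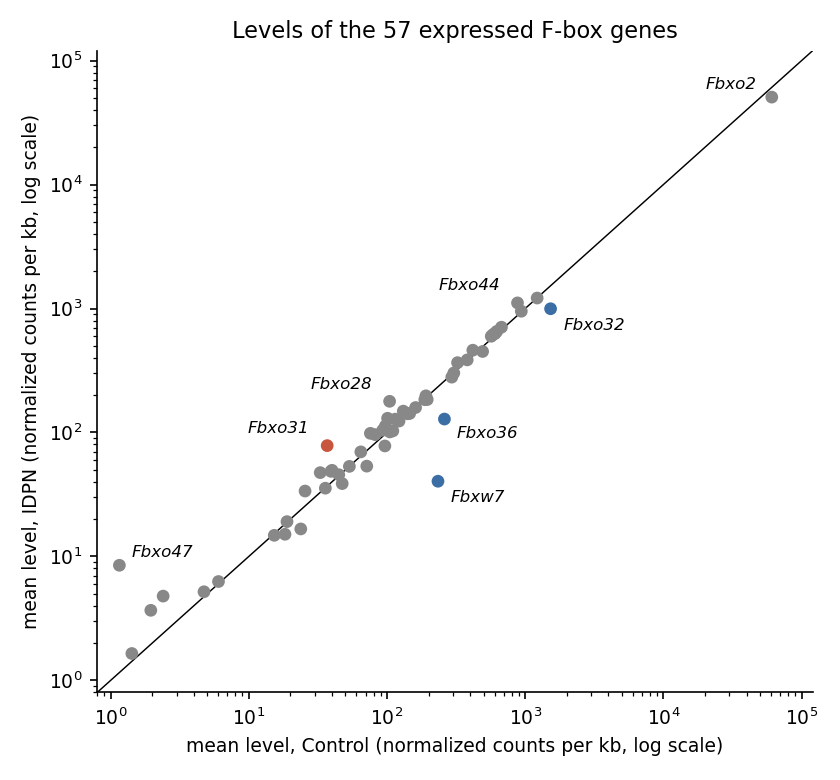
Mean level in Control (x axis) and IDPN (y axis), in normalized counts per kb of exon on log scales, of the 57 expressed F-box genes; the line marks equal levels, blue genes called lower and red genes called higher. *Fbxo2* stands apart at the top, and *Fbxw7* lies farthest below the line, at 234 and 40.4.

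Levels per kb followed this order over all 6 libraries: *Fbxo2*, *Fbxo32*, *Fbxo9*, *Fbxo44*, *Fbxw11*, *Fbxo22*, *Fbxo3*, *Fbxl5*, *Fbxo21* and *Fbxw5*. The gap from *Fbxo2* to *Fbxo32* and the gap from *Fbxw11* to *Fbxo22* were the ones in which the ranges of neighbouring genes did not overlap. From *Fbxo32* down to *Fbxw5*, means over all libraries went from 1261 to 583 normalized counts per kb.

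Some members with few counts or a wide spread are given by their values. *Fbxo28*, which had 289, 574 and 803 normalized counts in Control and 977, 801 and 1068 in IDPN, overlapped between the groups through Control 3 (log2 fold change 0.77, DESeq2 Padj = 0.0937). Without Control 3 it was called higher (1.14, DESeq2 Padj = 0.00177). *Fbxo33* had 125 to 173 and 202 to 220 normalized counts (0.53, DESeq2 Padj = 0.238), and *Fbxo30* had 486 to 566 and 636 to 743 (0.37, DESeq2 Padj = 0.264). *Fbxo47*, known from the germ line, had 0, 2 and 6 counts in Control and 29, 18 and 15 in IDPN. Its groups did not overlap, and it was not called with DESeq2 (Padj = 0.0679) or edgeR (Padj = 0.105), but it was with a filter on low counts (DESeq2 Padj = 0.0490) and without Control 3 (DESeq2 Padj = 0.0369).

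In 5 members with counts no Padj was given. *Fbxo41*, a neuronal F-box gene, had 0, 1 and 0 counts in Control and 5, 13 and 2 in IDPN, and *Fbxl13* had 0, 0 and 1 against 3, 2 and 4. *Fbxo43*, an inhibitor of the anaphase-promoting complex in meiosis, had 6, 0 and 2 against 4, 3 and 1. *Fbxo40*, a muscle gene, had 3 counts in Control 3 and none in any other library, and the fifth was *Fbxw15*. *Fbxo39* and *Fbxo48* had no count in any library.

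Exons of 21 members overlap those of another gene, and the libraries do not mark strand, so part of their counts can belong to the neighbour. Among the called genes this holds for *Fbxo32*, of whose exon bases 2.67% are shared with the antisense gene *Gm15943*. No such overlap was found for *Fbxw7*, *Fbxo36*, *Fbxo31* or *Fbxo2*.

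Other genes around the SCF ligase were read in 8 lists with 84 genes. With DESeq2, 4 of the 80 tested were called higher, a larger share than the 2.32% of all tested genes. None was called lower, beside 3.42% of all tested genes. At an unadjusted p under 0.05 (DESeq2) the counts were 9 and 7 (11.2% and 8.75%, beside 7.77% and 9.15% of all tested genes), and edgeR called 0 in either direction. The list of SCF core subunits and ubiquitin-conjugating enzymes had none called of 11 tested (1 at an unadjusted p under 0.05), with log2 fold changes of 0.13 for *Cul1* and -0.07 for *Rbx1*. The 10 subunits of the COP9 signalosome, the 7 other cullins, and 7 F-box genes with other names such as *Skp2* and *Btrc* (beta-TrCP1) also had none called, with medians of -0.04, -0.08 and 0.06 and with 2, 0 and 2 genes at an unadjusted p under 0.05 (DESeq2). *Btrc* had 1084 to 1196 normalized counts in Control and 1136 to 1207 in IDPN.

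Of 13 genes for neddylation and cullin exchange, 2 were called higher, beside 2.32% of all tested genes (DESeq2). Both belong to the DCN1-like family. At an unadjusted p under 0.05 (DESeq2), 2 of the 13 were higher and 1 lower. *Dcun1d5* had 223, 197 and 306 normalized counts in Control and 444, 719 and 384 in IDPN (log2 fold change 1.09, SE 0.27, DESeq2 Padj = 0.00262). *Dcun1d3* had 114, 149 and 153 against 239, 276 and 199 (0.78, SE 0.26, DESeq2 Padj = 0.0440). The groups did not overlap for either gene. Neither was called with edgeR, nor without IDPN 2, where the log2 fold changes were 0.77 and 0.66. *Dcun1d5* also lost its call without Control 2 (0.95, DESeq2 Padj = 0.0657), and *Dcun1d3* without Control 1, Control 2 or IDPN 1 (0.65, 0.82 and 0.78). *Nedd8* itself (-0.34, DESeq2 Padj = 0.278) and *Cand1* (0.18, DESeq2 Padj = 0.596) were not called.

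Transcripts of 21 genes whose protein products are substrates of Fbxw7 were examined, although the counts say nothing of protein stability. Of the 20 tested, 2 were called higher and 0 lower, beside 2.32% and 3.42% of all tested genes (DESeq2). At an unadjusted p under 0.05 (DESeq2), 5 were higher and 2 lower. *Mycn* was lower, with 138, 130 and 152 normalized counts in Control and 88.6, 88.4 and 58.8 in IDPN. It was not called (log2 fold change -0.84, DESeq2 Padj = 0.0779). *Notch1*, the receptor, had 2600, 2908 and 3211 normalized counts in Control and 3654, 6897 and 3635 in IDPN (log2 fold change 0.70, SE 0.24, DESeq2 Padj = 0.0480). *Mcl1*, an anti-apoptotic relative of Bcl2, had 376, 481 and 548 against 524, 1657 and 899 (1.13, SE 0.32, DESeq2 Padj = 0.00999), and its groups overlapped. In both, IDPN 2 was by far the highest library. Without it the log2 fold changes were 0.33 for *Notch1* and 0.60 for *Mcl1*, and neither was called. With edgeR neither was called. *Notch1* lost its call without Control 1 or Control 2 as well (0.62 and 0.70), and *Mcl1* without any library other than IDPN 1 (0.60 to 1.26).

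IDPN 2 was also the library that stood apart for *Jun*, with 2842 normalized counts against 357 and 510 in the other IDPN libraries and 355 to 374 in Control, and for *Myc*, with 421 against 18.2 and 19.6 and 10.7 to 32.7. *Jun* was not called (DESeq2 Padj = 0.287), and *Myc* had no Padj. *Hif1a* had a DESeq2 Padj of 0.0488 and a log2 fold change of -0.57, just short of the fold threshold, with 23648, 24182 and 16034 normalized counts in Control and 11964, 15183 and 15749 in IDPN. *Ccne1* was near 0, with at most 15.9 normalized counts in any library. None of 6 genes that act on Fbxw7 or its degrons was called (0 at an unadjusted p under 0.05), with log2 fold changes of -0.02 for *Gsk3b* and 0.13 for *Usp28*. None of the 6 tested clients and partners of Fbxo2 was called (1 at an unadjusted p under 0.05, lower), with -0.54 for *Gjb2* (connexin 26, DESeq2 Padj = 0.0886) and -0.17 for *App*.

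**Figure D5:**
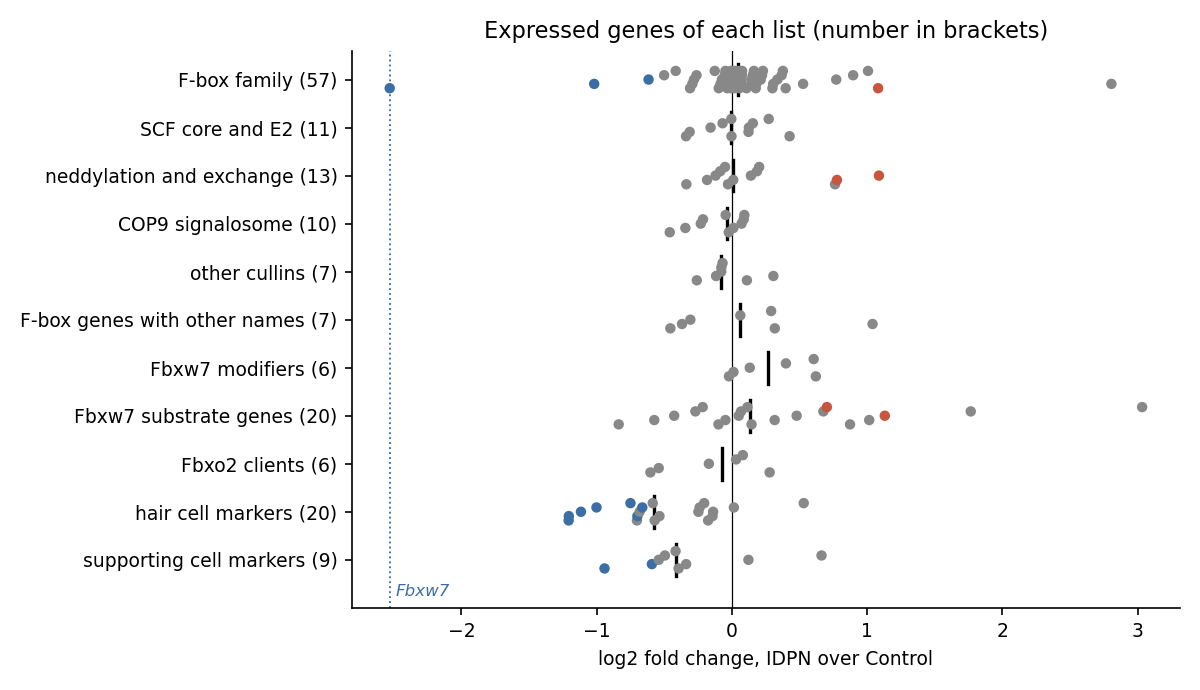
Log2 fold change (x axis, IDPN over Control) of the expressed genes of the F-box family, of 8 lists around it and of 2 marker lists (number of genes in brackets); each point is a gene, blue called lower, red called higher, grey not called or without a Padj, and black ticks mark the median of a list. The dotted line marks *Fbxw7* at -2.53, below all 20 HC markers of the list. That list leaves out the 34 genes that the study selected for being downregulated, *Fbxw7* among them.

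Markers of other cells were read in the same libraries. Among neuronal markers, 3 of 4 tested were called lower, with summed normalized counts of 4903 to 5118 in Control and 3055 to 3372 in IDPN. Over all tested genes, 3.42% were called lower with DESeq2. Of 4 endothelial markers 1 was called lower, and none was called of 9 macrophage, 5 Schwann cell, 5 stromal and 5 dark cell markers, with medians of 0.50, -0.44, 0.36 and -0.44 and with 3, 2, 1 and 2 genes at an unadjusted p under 0.05 (DESeq2). The part of these cells in the F-box results was not tested.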

How the data were processed

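The authors aligned the reads with STAR 2.5.3a to GRCm38 and deposited estimated counts (expected counts, whole numbers) per gene from RSEM 2.3.0 on GENCODE M15, with no normalization or filter. Libraries were made with SMART-seq2 from 6 to 11 ng of RNA, with 8 cycles of cDNA and 12 of library PCR and no molecular identifiers, so counting error understates the true error. Counts were tested with DESeq2 1.42.0 (R 4.3.3; Wald test, median-of-ratios size factors, independent filtering, Cook's filter). edgeR 4.0.16 (quasi-likelihood test, TMM, filterByExpr) was the first alternative, and both were tested on simulated data. Single values per library were compared by two-sided exact permutation tests. Lengths and coordinates came from GENCODE M21 on the same build and covered 99.6% of genes. Members and lists were chosen with earlier results of these data known. Named genes were *Fbxw7*, *Fbxo2*, members with Padj under 0.05 and the 10 highest per kb. Members with the F-box-associated domain and called genes of the pathway lists were named too. Others named were chosen after their values were seen. One member is not reported here by name. Replicate pairs differed by more than sampling noise (chi-square per degree of freedom 39.5 to 161).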

Additional observations from a re-analysis of the deposited data

How the results depend on the processing

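The fall of *Fbxw7* stayed past both thresholds under every alternative run, with log2 fold changes of -2.53 to -2.26 on all 6 libraries and -2.68 to -2.34 when a library was left out, and *Fbxo2* was not called under any of them (-0.42 to -0.08 when a library was left out, -0.002 with total-count scaling). Total-count scaling raised the family's median log2 fold change to 0.30, along with the 0.25 by which all expressed genes moved, and left 2 members called higher and 1 lower (DESeq2). With a filter on low counts 2 members were called higher. A DESeq2 test against a fold change of 1.5 itself left 0 higher and 1 lower. When a library was left out, 1 to 3 members were called higher (3 without Control 3) and 2 to 3 lower, and the family's median was -0.00022 (without Control 3) to 0.080. The pathway lists had 0 genes called higher with edgeR, 2 without independent filtering, and 0 to 3 when a library was left out (0 without Control 2 or IDPN 2, 1 without Control 1). They had 1 called lower with no fold threshold and 0 to 3 when a library was left out (3 without Control 3, 1 without IDPN 2).

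Among the genes and ratios followed through all alternatives, signs turned for the ones below, none of which was called. *Fbxo9* was at 6.7e-05 with edgeR and 0.26 with total-count scaling. With a library left out, log2 fold changes were -0.11 to 0.10 for *Fbxo9*, -0.079 to 0.10 for *Fbxw11*, -0.0055 to 0.14 for *Fbxo3*, -0.022 to 0.15 for *Fbxl5*, -0.068 to 0.20 for *Fbxo21*, -0.041 to 0.14 for *Fbxw5*, and -0.061 to 0.25 for *Fbxo17*. The ratio of *Fbxo2* to supporting cell markers was -0.086 to 0.30 (log2 difference, reversed without Control 3), and 0.36 against the sum of the markers (exact permutation p = 0.20). Against the geometric mean of the expressed members, *Fbxo2* differed by -0.35 (exact permutation p = 0.30). The cause was not tested. The Control and IDPN libraries come from different animals and the labels pair none of them, so no paired analysis was run. With 3 libraries a group, exact permutation tests cannot reach p under 0.10.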
